A study of Mus musculus with 36 samples.

Results

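Blood taken at week 4 was set against blood taken at week 0 in the arm of the study that received MIR29B at 2 mg/kg. The 6 libraries, 3 at week 4 and 3 at week 0, were chosen by their titles and are 6 of the 36 libraries of the series. All mice were Townes sickle cell mice, in which human globin genes that include the sickle allele replace the mouse globin genes. The title of the series describes MIR29B as cholesterol-modified, and per the labels it and the scrambled control were given at weeks 0, 2 and 4 through a mini-osmotic pump. The week 4 libraries are labelled as MIR29B overexpression, and the week 0 libraries carry the same label. Whether week 0 blood was drawn before the pump delivered anything is not given in the sources used here, so week 0 names a time and not an untreated state. For reference, 3 week 4 and 3 week 0 libraries of the scrambled oligonucleotide at 2 mg/kg, and 3 week 4 and 3 week 0 libraries of MIR29B at 3 mg/kg, were compared in the same way. The labels give no age or sex and do not say whether the libraries of both weeks came from the same animals. The p-values therefore measure the spread between these samples, which may be partly technical.

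MicroRNAs of the miR-29 family pair with sites in the 3' untranslated regions (UTRs) of messenger RNAs through a short seed near their 5' end, and paired transcripts are degraded or translated less. DNA methyltransferases and TET enzymes are among the textbook targets of the family, and DNA methylation is one of the mechanisms that keep fetal globin genes silent in adult red cells. Circulating blood holds RNA from reticulocytes, platelets and white cells, and neutrophils and monocytes respond to stimulation within hours through the transcription factors NF-kappa-B and AP-1. The mature mouse miR-29 sequences, as RefSeq gives them for GRCm38.p6, show what the dosed family shares; capitals mark the seed, bases 2 to 8 from the 5' end, and the sequence of the dosed molecule itself is not given in the sources used here.
mmu-miR-29a-3p: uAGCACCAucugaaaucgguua
mmu-miR-29b-3p: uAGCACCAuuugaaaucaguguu
mmu-miR-29c-3p: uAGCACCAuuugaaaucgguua
The 3 family members carry the same seed and differ only after it. The miR-29b sequence is encoded at chr6:31063025-31063047 on the minus strand and at chr1:195037091-195037113 on the plus strand.

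The libraries differed in depth and make-up along with the weeks. Totals over all transcripts were 34.8, 39.38 and 33.41 M counts at week 4, against 29.02, 17.87 and 24.08 M counts at week 0. The share of counts on cytosolic ribosomal protein genes was 5.82%, 6.36% and 7.59% at week 4, against 7.13%, 14.05% and 11.78% at week 0. A transcript length index was computed as the median log2 level of long transcripts, at least 4334 bases, minus that of short ones, at most 1764 bases, relative to the mean of all 36 libraries. It was 0.92, 0.63 and 0.48 at week 4, against 0.29, -1.28 and -0.49 at week 0. Library 2 of week 0 had 7411 genes with at least 10 counts, the fewest in the series, and stood apart on the first principal component of the 6 libraries, which held 55.7% of their variance. Week 0 library 1 had rank correlations of 0.915 to 0.927 with the week 4 libraries across genes, which are not independent replicates. Its rank correlations were 0.911 with week 0 library 3 and 0.836 with week 0 library 2. By Xist and Y-linked counts the week 4 libraries read as female, female and male and the week 0 libraries as female, male and male. By this reading the week 4 and week 0 libraries do not all come from the same mice. Library 1 of week 4 held both kinds, 1274 Xist counts and 120 Y-linked counts. With this reading as a term in the model, chosen after seeing the data, 165 genes were called higher and 48 lower between the weeks.

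**Figure D1:**
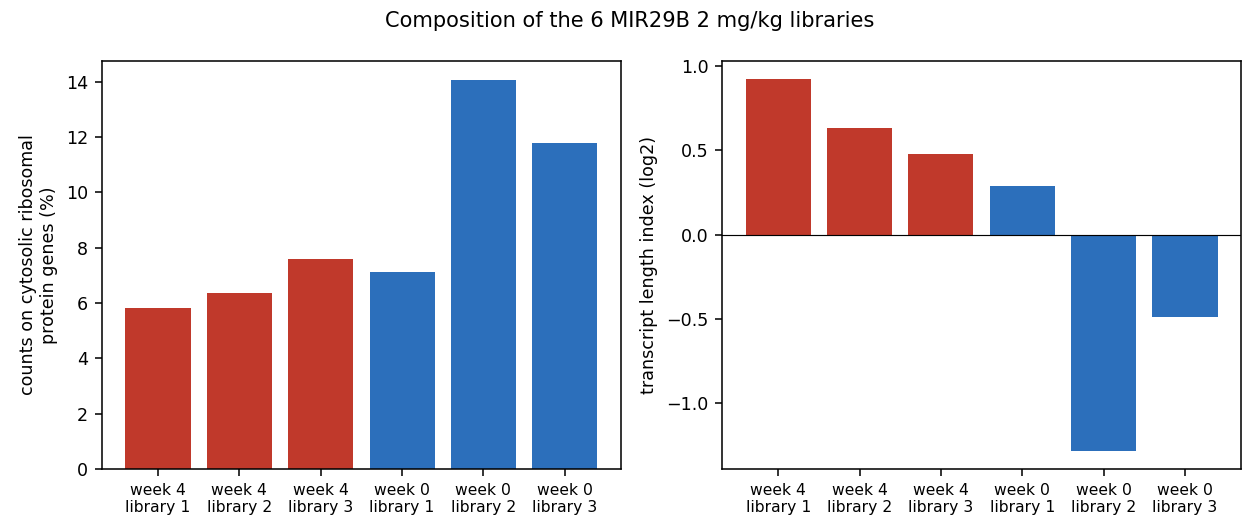
Share of counts on cytosolic ribosomal protein genes in percent (left) and transcript length index on the log2 scale (right) in each of the 6 libraries, with week 4 in red and week 0 in blue. Library 2 of week 0 has the highest ribosomal protein share, 14.05%, and the lowest index, -1.28.

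The cell type label is erythrocytes, and the defining red cell transcripts were abundant in the 6 libraries. Alas2, the first enzyme of red cell heme synthesis, stood at 111400, 148700 and 123100 CPM (counts divided by the library's total in units of 1e+06, scaled by the TMM method) at week 4, against 104100, 105100 and 84890 CPM at week 0. Defining transcripts of white cells and platelets were present as well in every one of the 6 libraries. The neutrophil gene S100a9 stood at 400.2, 186.8 and 365.9 CPM at week 4, against 90.0, 227.1 and 63.49 CPM at week 0. Pf4, a platelet chemokine, stood at 28.8, 45.0 and 56.9 CPM at week 4, against 70.8, 243.3 and 70.5 CPM at week 0. Cd3e of T cells was above 5 CPM throughout. In whole blood RNA, fewer cells of a type and less RNA per cell cannot be told apart.

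At week 4 a group of stimulus response and neutrophil activation genes was higher than at week 0 in the 2 mg/kg MIR29B arm. The 5 smallest p-values were those of Maff, Ets2, Per1, Trem1 and Jdp2. Of 11953 genes tested, 188 were higher and 61 lower at an adjusted p under 0.05 by edgeR's quasi-likelihood test, which is 2.08% of the genes in all, 1.57% higher and 0.51% lower. The median log2 fold change was 2.39 over the called higher genes, -1.96 over the called lower genes and 0.09 over all genes tested. Every one of the 249 called genes had all 3 week 4 libraries on one side of all 3 week 0 libraries. The same held upward for 16.7% and downward for 11.1% of all genes tested. At an unadjusted p under 0.05 stood 2213 genes.

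How many genes were called depended on single libraries. Without week 0 library 2, 42 genes were called higher, 0.341% of those tested, and 1 was called lower, 0.00812%. Without week 0 library 3 the counts were 59 higher and 16 lower, and without week 0 library 1 they were 377 and 238. Leaving out week 4 library 1, 2 or 3 gave 61, 136 or 113 higher genes and 1, 10 or 6 lower genes. Adding the transcript length index to the model left 113 genes called higher, 0.945%, and 7 lower, 0.0586%, and 100 of the 188 and 4 of the 61 kept their call. Of the 188 called higher genes, week 4 library 1 held the highest of the 6 values in 138 and week 0 library 2 the lowest in 123, against 2621 and 4445 of all 11953. Of the called genes, 34 higher ones and none of the lower ones kept the call in all 6 fits that left out 1 library. Among these 34 were Maff, Trem1, Ets2, Cd80, Acod1, Il1r2, G0s2, Ccrl2, Cd14, Nfkbiz, Csrnp1, Fosl2, Plaur, Zc3h12a, Marcksl1, Snai1, Rnd1, Slc22a15 and Slc2a1.

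Trem1 amplifies inflammatory signalling at the neutrophil and monocyte surface and lies on chromosome 17 from 48232713 to 48246927 (GRCm38). It stood at 100.4, 42.7 and 77.3 CPM at week 4, against 7.54, 2.36 and 2.93 CPM at week 0. The lowest week 4 library was above the highest week 0 library. On the log2 scale the fold change was 4.08 ± 0.59 (SE), with an adjusted p of 0.000194.
Maff, a small MAF transcription factor that is induced by stress and inflammatory signals, lies on chromosome 15 from 79346621 to 79359078. It stood at 15.8, 7.52 and 25.4 CPM at week 4, against 0.212 CPM in week 0 library 1 and no counts in week 0 libraries 2 and 3. It had the smallest p-value of the comparison, with an adjusted p of 5.241e-06 and a log2 fold change of 7.35 ± 0.85. That fold rests on 4 counts at week 0, against 1134 counts at week 4.
Acod1 makes the antimicrobial metabolite itaconate in activated myeloid cells. It stood at 103.8, 25.8 and 47.7 CPM at week 4, against 0.531 CPM in week 0 library 1 and no counts in the others, or 4284 counts against 10. The log2 fold change was 8.01 ± 1.45 with an adjusted p of 0.00165.
Cd80, a costimulatory ligand for T cells, stood at 5.13, 2.63 and 2.25 CPM at week 4 and had no counts in any week 0 library. With a floor of 3 counts over the 3 week 0 libraries it was at least 45.3-fold higher at week 4. With a floor of 6 counts, since every count in the table is even, it was at least 22.7-fold higher. The adjusted p was 0.000303.

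Further genes with the largest rises have other roles. Ets2, a transcription factor downstream of RAS signalling, averaged 81.8 ± 35.7 CPM at week 4 and 3.28 ± 2.55 CPM at week 0 (SD, n = 3 each). Ets2 had a log2 fold change of 4.6 ± 0.65, with an adjusted p of 0.000157. Rnd1 stood at 6.37, 4.13 and 5.93 CPM at week 4, against 0.319, 0 and 0.14 CPM at week 0. Snai1, a zinc finger repressor, stood at 4.97, 3.01 and 3.05 CPM at week 4, against 0.212, 0 and 0 CPM at week 0. In each of these genes the weeks did not overlap. The transporter gene Slc22a15, the gene Rhov and the nuclear receptor gene Nr4a3 had log2 fold changes of 4.8 ± 0.9, 5.01 ± 1.23 and 5.40 ± 1.13. These rest on 6, 4 and 4 counts at week 0, and the calls of Rhov and Nr4a3 were lost without week 0 library 2 and without week 4 library 1, that of Rhov also without week 0 library 3. Saa3, an acute phase protein made outside the liver, stood at 8.47, 9.59 and 21.9 CPM at week 4, against 0.319, 0.262 and 0.14 CPM at week 0. Its log2 fold change was 5.74 with an adjusted p of 0.0185, and 5.73 with an adjusted p of 0.135 without week 0 library 2. Mgam, a glucosidase gene, stood at 5.75, 2.07 and 0.898 CPM at week 4, against 2 counts in all at week 0, with an adjusted p of 0.0218 that was 0.153 without week 0 library 2. Mgam had a log2 fold change of 5.78, and of 5.44 without that library.

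**Figure D2:**
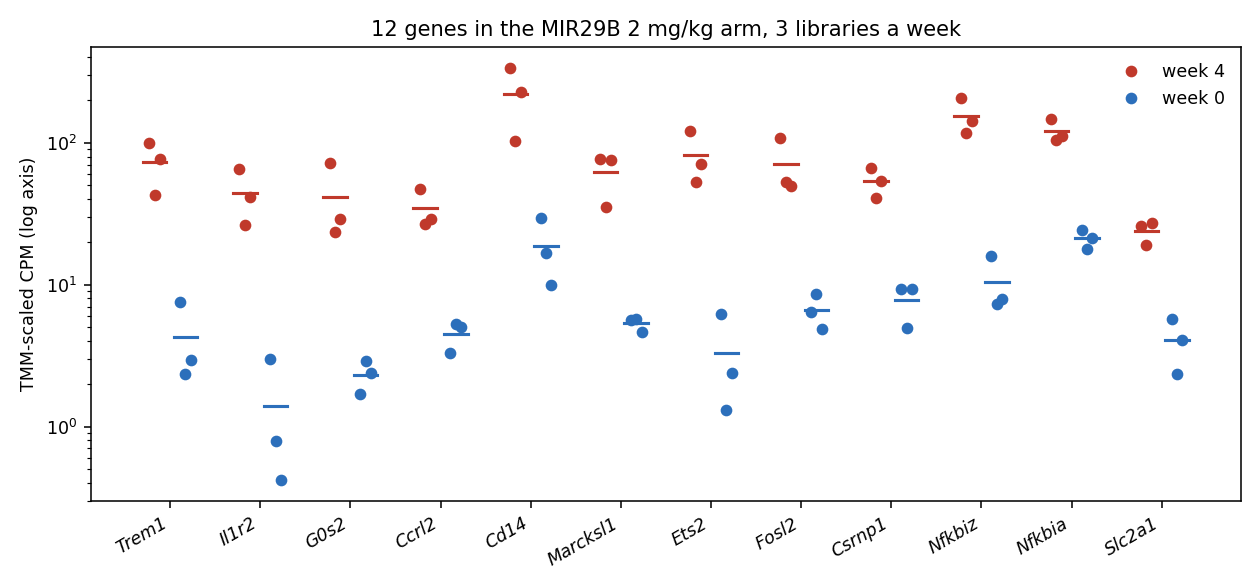
Levels of 12 genes in TMM-scaled CPM on a log axis, with week 4 in red left of week 0 in blue, each point 1 library and each bar the mean of 3. In all 12 genes every week 4 library lies above every week 0 library, for example Slc2a1 with 18.9 to 27.2 CPM at week 4 and 2.36 to 5.74 CPM at week 0.

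Of 30 tested genes of neutrophil surface and activation, 12 were called higher and none lower, with a median log2 fold change of 1.76 against 0.09 over all genes. Of all genes tested, 1.57% were called higher and 0.51% lower. The members of this and the other lists were chosen with earlier results of these data known, so list counts and medians are a description. All 30 had a positive log2 fold change. Between the same weeks 28 were positive in the scrambled arm, with a median of 0.72. At 3 mg/kg of MIR29B 28 were positive, with a median of 1.05. Il1r2, the decoy receptor for interleukin-1, stood at 65.2, 26.2 and 41.4 CPM at week 4, against 2.98, 0.786 and 0.419 CPM at week 0. G0s2, an inhibitor of triglyceride lipase, stood at 72.5, 23.7 and 29.1 CPM at week 4, against 1.70, 2.88 and 2.37 CPM at week 0. Ccrl2, which binds and presents the chemoattractant chemerin, stood at 47.5, 26.97 and 29.02 CPM at week 4, against 3.29, 5.24 and 5.02 CPM at week 0. In these genes the weeks stood far apart, and their log2 fold changes were 4.92 ± 0.80, 4.19 ± 0.66 and 2.94 ± 0.50, with adjusted p of 0.000454, 0.000303 and 0.000633. The other called members were C5ar1, Clec4e, Hdc, Mxd1, Ptafr, Il1b, Clec4d, Trem3 and Trem1, with log2 fold changes of 1.72 to 4.08. Csf3r and Cxcr2, receptors used as defining neutrophil genes, had log2 fold changes of 1.98 ± 0.57 and 1.59 ± 0.59 with adjusted p of 0.055 and 0.135 and did not pass the test. The summed level of the list was 1951, 1130 and 1376 CPM at week 4, against 555.6, 351.5 and 364.8 CPM at week 0. The number called was 7 of 30 without week 0 library 2 and 11 with the transcript length index in the model.

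The granule genes of neutrophils were described separately. Of 23 tested, none was called, and the median log2 fold change was 0.74. It was 1.18 without week 0 library 2, 0.43 without week 0 library 3 and 0.31 without week 4 library 1. With the transcript length index in the model, the granule list had a median of 1.29 and the surface list of 1.28. Their summed level was 1739, 966.8 and 1324 CPM at week 4, against 628.6, 1044 and 567.4 CPM at week 0, and the weeks overlapped. S100a8 and S100a9, the calprotectin subunits, had log2 fold changes of 0.88 ± 0.59 and 1.33 ± 0.53 with adjusted p of 0.443 and 0.165. Mmp9, a gelatinase stored in granules, stood at 104.2, 50.6 and 52.1 CPM at week 4, against 30.6, 8.90 and 5.86 CPM at week 0, with an adjusted p of 0.0515. In the scrambled arm the granule list had a median log2 fold change of 0.94 between the same weeks. The granule and defining neutrophil genes moved beside the surface list, and their part in its result was not tested.

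Of 34 tested monocyte and macrophage genes, 1 was called. Cd14, the co-receptor for bacterial lipopolysaccharide, which neutrophils also carry, stood at 336.6, 103.5 and 226.8 CPM at week 4, against 29.3, 16.8 and 9.91 CPM at week 0. Cd14 had a log2 fold change of 3.57 ± 0.61, with an adjusted p of 0.000685. The defining genes Csf1r and Ccr2 had log2 fold changes of 1.33 ± 0.53 and 0.44 ± 0.58 with adjusted p of 0.165 and 0.734. The summed level of the list was 1043, 688.5 and 758.2 CPM at week 4, against 475.1, 432.1 and 445.1 CPM at week 0, and its median log2 fold change was 0.85, or 0.25 with the transcript length index in the model. In the scrambled arm the monocyte list had a median of 0.77, and 31 of its 34 genes were positive, against 30 with MIR29B.
Hdc, which makes histamine, was the called gene of 15 tested eosinophil, basophil and mast cell genes. It stood at 76.2, 29.6 and 29.6 CPM at week 4, against 10.8, 5.50 and 3.07 CPM at week 0, with a log2 fold change of 2.79 and an adjusted p of 0.00597. The call was lost without week 0 library 2, with a log2 fold change of 2.63 and an adjusted p of 0.0671.

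Of 47 tested genes of the inflammatory response, 15 were called higher and none lower, and their median log2 fold change was 1.87. With the 4 members that had no counts at week 0 set at the bound given by 3 or 6 counts, the median was 1.87 or 1.63. Marcksl1, a MARCKS family protein, stood at 76.8, 35.0 and 75.6 CPM at week 4, against 5.63, 5.76 and 4.61 CPM at week 0. Zc3h12a, the RNase that degrades cytokine messenger RNAs, stood at 37.7, 23.7 and 29.6 CPM at week 4, against 2.98, 3.40 and 3.21 CPM at week 0. Plaur, the urokinase receptor, stood at 53.7, 24.2 and 41.1 CPM at week 4, against 7.65, 4.19 and 6.42 CPM at week 0. The week 0 libraries of these genes lay close together, and the log2 fold changes were 3.55 ± 0.53, 3.25 ± 0.50 and 2.69 ± 0.45, with adjusted p of 0.000212, 0.000264 and 0.000618. The others called were Trem1, Ccrl2, Cd14, Acod1, the lipoprotein receptor Tlr2, Clec4e, the cytokine Il1b, the neutrophil chemokine Cxcl2, Irak2, the feedback inhibitor Socs3, Ebi3 and the inflammasome sensor Nlrp3. Il1b stood at 281.5, 139.8 and 231.2 CPM at week 4, against 49.9, 16.5 and 27.1 CPM at week 0, and Cxcl2 at 164.0, 91.2 and 80.8 CPM at week 4, against 12.3, 11.3 and 4.88 CPM at week 0. Tnf did not pass the test, with 2.41, 2.72 and 3.05 CPM at week 4, against 0.212, 1.05 and 0 CPM at week 0 and an adjusted p of 0.0681. It is named here after its values were seen. The number called was 9 of 47 without week 0 library 2. Between the same weeks the list had a median of 0.66 in the scrambled arm and of 1.1 at 3 mg/kg of MIR29B.

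**Figure D3:**
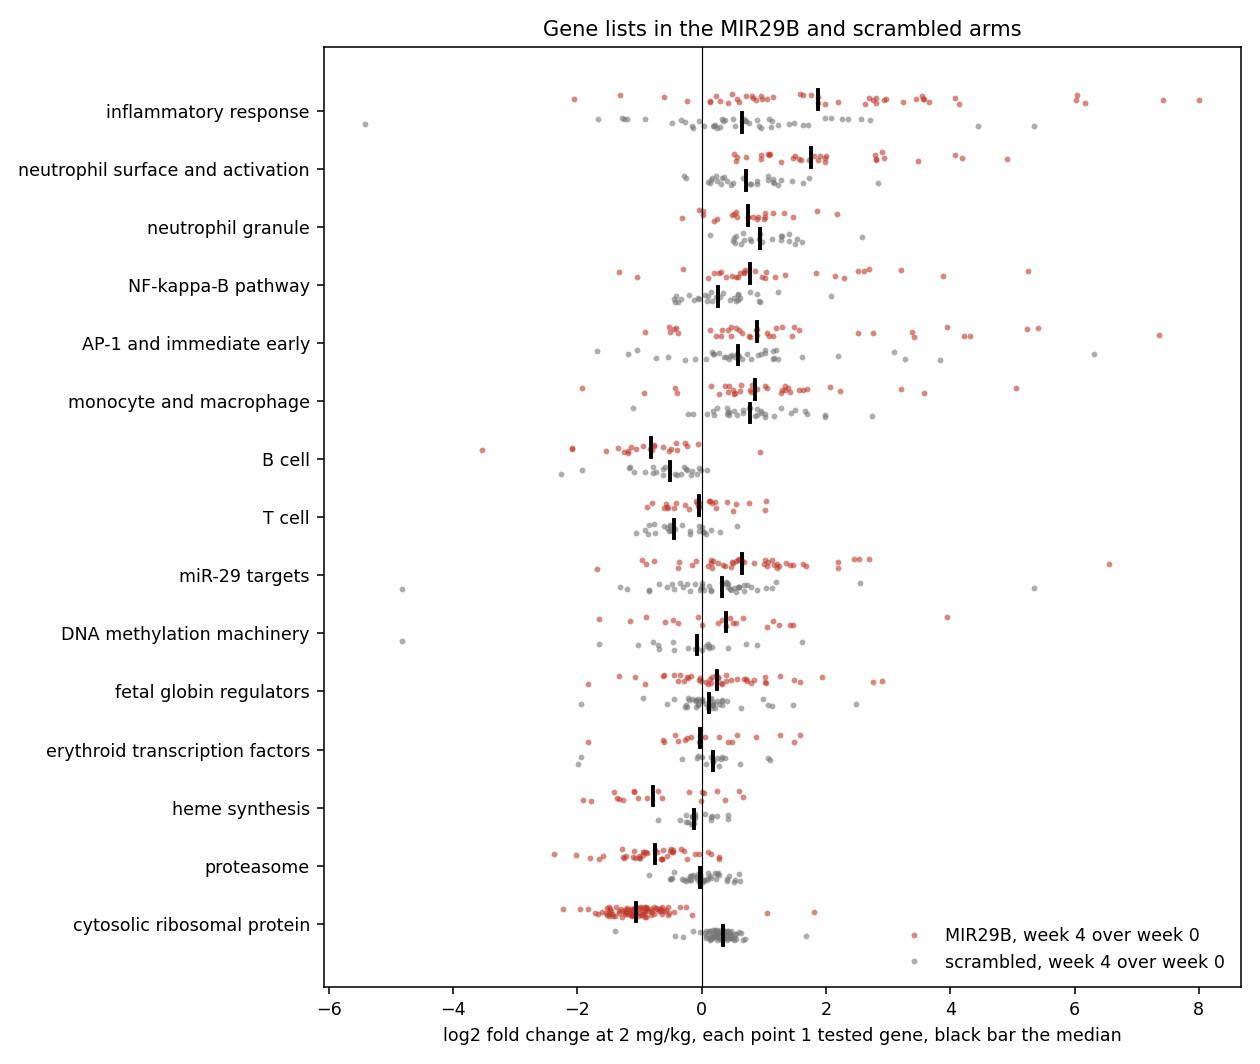
Log2 fold change of week 4 over week 0 at 2 mg/kg for each tested gene of 15 lists, with MIR29B in red above the scrambled arm in grey and black bars at the medians. The inflammatory list has medians of 1.87 with MIR29B and 0.66 with the scrambled control, and the cytosolic ribosomal protein list -1.06 and 0.35.

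NF-kappa-B is held in the cytoplasm by inhibitors of the I-kappa-B family, whose genes it induces itself. Of 30 tested genes of the pathway, 7 were called higher and none lower, with a median log2 fold change of 0.79, or 0.71 with the member that had no counts at week 0 at the bound of 6 counts. The 7 were the I-kappa-B family genes and other targets of the pathway, Nfkbia, Nfkbie, Nfkbiz, Nfkbid, Bcl3, Tnfaip3 and Birc3. Nfkbiz stood at 206.5, 117.3 and 142.1 CPM at week 4, against 15.9, 7.33 and 7.95 CPM at week 0. Nfkbia, the classical inhibitor, stood at 146.1, 104.5 and 111.5 CPM at week 4, against 24.2, 17.8 and 21.5 CPM at week 0. Tnfaip3, the ubiquitin editing enzyme A20, stood at 133.8, 121.0 and 121.6 CPM at week 4, against 34.2, 7.33 and 16.5 CPM at week 0. Their log2 fold changes were 3.89 ± 0.70, 2.51 ± 0.51 and 2.69 ± 0.59, with adjusted p of 0.00144, 0.00609 and 0.0107. The subunit genes Nfkb1 and Rela had log2 fold changes of 0.62 ± 0.38 and 0.68 ± 0.32 with adjusted p of 0.384 and 0.247. Of the 7, Nfkbiz alone was called without week 0 library 2. With the transcript length index in the model, 4 genes of the list were called and its median was 0.47. Between the same weeks the list had a median of 0.26 in the scrambled arm and of 0.33 at 3 mg/kg of MIR29B.

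Promoters of the called NF-kappa-B genes were searched because these genes moved together. The motif GGGAANNNCC was looked for on both strands in windows of 250 bases before to 50 after each RefSeq start. It was present in 5.78% of all 32851 promoters, in 7.05% of those of tested genes in 7.77% of those of the called higher genes and in 9.84% of those of the called lower genes. By gene, 15 of 155 called higher genes with a promoter in the RefSeq table had a match, 9.68%, and 5 of 48 called lower genes, 10.4%, against 8.27% of the tested genes. Of the 6 called NF-kappa-B genes in the table, Nfkbia, Nfkbid, Bcl3 and Tnfaip3 had a match. The following GRCm38.p6 promoters show the matches in capitals, on either strand; where 2 matches overlap they run together.
Nfkbia, chr12:55492598-55492897, minus strand: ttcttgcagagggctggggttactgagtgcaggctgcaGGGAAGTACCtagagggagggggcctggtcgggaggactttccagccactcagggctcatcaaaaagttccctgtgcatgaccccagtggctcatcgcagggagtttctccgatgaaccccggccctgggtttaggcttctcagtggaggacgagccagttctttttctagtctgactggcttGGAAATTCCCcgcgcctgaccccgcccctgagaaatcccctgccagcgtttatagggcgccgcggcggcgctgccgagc
Cxcl2, chr5:90903649-90903948, plus strand: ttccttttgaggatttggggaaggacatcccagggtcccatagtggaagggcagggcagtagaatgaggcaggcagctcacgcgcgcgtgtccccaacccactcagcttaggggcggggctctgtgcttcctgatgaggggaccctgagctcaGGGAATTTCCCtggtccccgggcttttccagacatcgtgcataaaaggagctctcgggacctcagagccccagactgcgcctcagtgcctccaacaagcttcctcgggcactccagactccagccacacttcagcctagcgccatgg
These matches describe the letters alone and not binding. The AP-1 motif TGANTCA was in 5.18% of the promoters of tested genes in 6.8% of those of the called higher genes and in 3.28% of those of the called lower genes.

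Of 39 tested AP-1 and immediate early genes, 8 were called higher and none lower, with a median log2 fold change of 0.89. Of all genes tested, 1.57% were called higher, and the median was 0.09. Of the 39, 33 had a positive log2 fold change. Between the same weeks 32 were positive in the scrambled arm, with a median of 0.58. At 3 mg/kg of MIR29B 31 were positive, with a median of 0.81. The called genes were Maff, Csrnp1, Fosl2, Snai1, Gadd45b, Nr4a3, the phosphatase gene Dusp5 and Ptp4a1. Fosl2, a FOS family subunit of AP-1, stood at 108.0, 53.1 and 49.9 CPM at week 4, against 6.38, 8.64 and 4.88 CPM at week 0. Csrnp1, a nuclear protein induced by AXIN, stood at 66.3, 41.0 and 53.5 CPM at week 4, against 9.24, 4.98 and 9.35 CPM at week 0. The log2 fold changes were 3.41 ± 0.57 and 2.76 ± 0.44, with adjusted p of 0.000618 and 0.000359. Fos itself, named after its values were seen, stood at 33.0, 24.8 and 20.7 CPM at week 4, against 71.4, 30.1 and 46.9 CPM at week 0, and did not pass the test, with an adjusted p of 0.229. The number called was 4 of 39 without week 0 library 2.

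Of 25 glycolysis genes, 4 were called higher: the glucose transporter gene Slc2a1, the lactate exporter gene Slc16a3, Pfkfb3 and Pkm. Of all genes tested, 1.57% were called higher. The list's median log2 fold change was 0.36, against 0.09 over all genes and 0.18 for the list in the scrambled arm. The number called was 2 of 25 without week 0 library 2. It was 1 without week 0 library 3, without week 4 library 1 or with the transcript length index in the model. Slc2a1 stood at 25.9, 18.9 and 27.2 CPM at week 4, against 5.74, 2.36 and 4.05 CPM at week 0. For Slc2a1 the log2 fold change was 2.55 ± 0.41 with an adjusted p of 0.000352. Slc16a3 stood at 48.8, 25.1 and 29.7 CPM at week 4, against 6.06, 10.5 and 3.77 CPM at week 0, a call lost without week 0 library 3 or week 4 library 1. Pkm stood at 132.1, 102.8 and 137.9 CPM at week 4, against 72.6, 45.0 and 50.1 CPM at week 0, an adjusted p of 0.0445. The Pfkfb3 and Pkm calls were lost without week 0 library 2 (adjusted p of 0.351 and 0.362) and without any of 4 other libraries, with log2 fold changes of 1.88 and 0.97 without that library, against 2.31 and 1.15 with it.
Stress genes were called in small numbers, beside 1.57% of all genes tested that were called higher. Among 29 genes of the unfolded protein response Ddit4, an inhibitor of mTOR signalling, Sesn2 and Herpud1 were called higher, with log2 fold changes of 1.54 ± 0.37, 4.28 ± 1.02 and 1.08 ± 0.30 and adjusted p of 0.0186, 0.0186 and 0.0451. Slc7a11, the cystine importer, was the called gene of 31 antioxidant genes, at 23.5, 7.52 and 9.61 CPM at week 4, against 1.38, 0.786 and 1.68 CPM at week 0. The antioxidant list as a whole had a median log2 fold change of -0.58, with 10 of 31 genes positive. Its median was 0.23 with the transcript length index in the model. Of the BCL2 family, Bcl2a1b was called with a log2 fold change of 1.97 ± 0.47. Its near-identical copies Bcl2a1a and Bcl2a1d may share its reads, and they were not called, with log2 fold changes of 2.24 ± 1.14 and 1.17 ± 0.63. None of the calls of Ddit4, Sesn2, Herpud1, Slc7a11 and Bcl2a1b held without week 0 library 2, where their log2 fold changes were 1.16, 3.84, 1.13, 3.09 and 1.98.

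DNMT3A is the target that the title of the series names, and MIR29B was dosed in this arm. The gene Dnmt3a, a de novo DNA methyltransferase on chromosome 12 from 3801559 to 3914443, stood at 4.97, 4.42 and 4.58 CPM at week 4, against 3.29, 0.262 and 2.09 CPM at week 0. All week 4 libraries were above all week 0 libraries, as in 16.7% of all genes tested. The log2 fold change of 1.25 ± 0.75 did not pass the test, with an adjusted p of 0.38. With the transcript length index in the model it was 0.16, with an adjusted p of 0.951. Between the same weeks Dnmt3a had log2 fold changes of -0.68 ± 0.74 with the scrambled control and -0.11 ± 0.73 with MIR29B at 3 mg/kg. Dnmt3b stood at 0.388, 0.094 and 0.719 CPM at week 4, against 0.212, 0 and 0.558 CPM at week 0, and Dnmt1, the maintenance methyltransferase, at 30.7, 31.3 and 19.9 CPM at week 4, against 27.4, 26.2 and 12 CPM at week 0. The weeks overlapped in both genes, and the adjusted p were 0.875 and 0.768. Tet3 and Tet2, which oxidise methylated cytosine, had log2 fold changes of 1.06 ± 0.39 and 1.42 ± 0.86 with adjusted p of 0.129 and 0.386. Among the 21 DNA methylation genes tested, 1 was called, Gadd45b, a stress-induced gene implicated in demethylation. It stood at 34.3, 23.5 and 26.6 CPM at week 4, against 2.23, 0.524 and 2.51 CPM at week 0, with an adjusted p of 0.00591 that was 0.0813 without week 0 library 2. Gadd45b had a log2 fold change of 3.94, and of 3.52 without that library.

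Of 45 tested literature targets of miR-29, 2 were called higher and none lower, and the list's median log2 fold change was 0.65, or 0.28 with the transcript length index in the model. They were Tnfaip3 and Tgif2, a homeobox repressor of TGF-beta signalling. Tgif2 stood at 8.47, 6.20 and 7.64 CPM at week 4, against 1.49, 0.524 and 1.68 CPM at week 0, with an adjusted p of 0.00285 that was 0.0566 without week 0 library 2. Tgif2 had a log2 fold change of 2.54, and of 2.19 without that library. Mcl1, an antiapoptotic BCL2 protein and miR-29 target, stood at 270.8, 164.8 and 234.6 CPM at week 4, against 132.2, 76.7 and 109.4 CPM at week 0. Mcl1 had a log2 fold change of 1.07 ± 0.36 that did not pass the test, with an adjusted p of 0.107.
Genes with a miR-29 site were also taken from the annotation. The site of 8 bases, TGGTGCTA, was found in the longest annotated 3' UTR of 599 of 21020 genes, and 346 of these were tested. Of the 346, 6 were called higher and 1 lower, 2.02%, against 2.18% of 10843 tested genes with a 3' UTR and no such site. Their median log2 fold changes were 0.31 and 0.1, and with the transcript length index in the model -0.11 and -0.04. The median transcript was 4328 bases long with a site and 2864 without. The called genes were Zfand2a, Ptp4a1, Metrnl, Sgms2, Wbp1l and Chst13, higher, and Fbxo8, lower. Sites of Dnmt3a, of 2 other genes of known interest and of 2 called genes are printed to show the pairing; capitals mark the 8 bases, and coordinates are GRCm38.
Dnmt3a, chr12:3911397-3911418, plus strand: gaggtagcTGGTGCTAgcacca
Dnmt3a, chr12:3911466-3911487, plus strand: tcccaagcTGGTGCTAattcct
Tet3, chr6:83364330-83364351, minus strand: ctaataaaTGGTGCTAtggtgt
Mcl1, chr3:95661851-95661872, plus strand: cttaaccaTGGTGCTAttcact
Ptp4a1, chr1:30941313-30941334, minus strand: tgtatataTGGTGCTAgaagtc
Metrnl, chr11:121716158-121716179, plus strand: gcccagccTGGTGCTAgaactg
Ptp4a1, a tyrosine phosphatase, stood at 48.7, 30.7 and 38.4 CPM at week 4, against 12.96, 16.24 and 13.95 CPM at week 0, a log2 fold change of 1.45 ± 0.35. Metrnl, a secreted protein related to meteorin, had a log2 fold change of 1.86 ± 0.44. Ptp4a1 and Metrnl passed the test, with adjusted p of 0.0186 and 0.0187, and Dnmt3a, Tet3 and Mcl1 did not. Neither Ptp4a1 nor Metrnl was among the 34 genes that kept the call in all 6 fits that left out 1 library.

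No gene of the 44 tested fetal globin regulators was called, at a median log2 fold change of 0.25, or 0.02 with the transcript length index in the model. Bcl11a, the main repressor of fetal globin genes and also a B cell factor, stood at 1.32, 1.32 and 0.988 CPM at week 4, against 2.87, 3.40 and 6.56 CPM at week 0. All week 4 libraries were below all week 0 libraries, as in 11.1% of all genes tested. The log2 fold change of -1.82 ± 0.60 did not pass the test, with an adjusted p of 0.0959. The value of the scrambled arm was -1.94 ± 0.61. Zbtb7a, a further repressor of fetal globin, stood at 16.4, 15.2 and 13.6 CPM at week 4, against 8.82, 3.14 and 4.05 CPM at week 0, with an adjusted p of 0.11. Klf1, Gata1 and Myb overlapped between the weeks. Their log2 fold changes were -0.60 ± 0.61, -0.04 ± 0.42 and -0.24 ± 1.08, with adjusted p of 0.639, 0.976 and 0.937. None of 19 erythroid transcription factors and none of 9 mouse globin genes was called, with medians of -0.02 and -1.04. The median of the mouse globin genes was -0.69 without week 0 library 2 and 0.09 with the transcript length index in the model. Human globin transcripts were not analysed here.

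**Figure D4:**
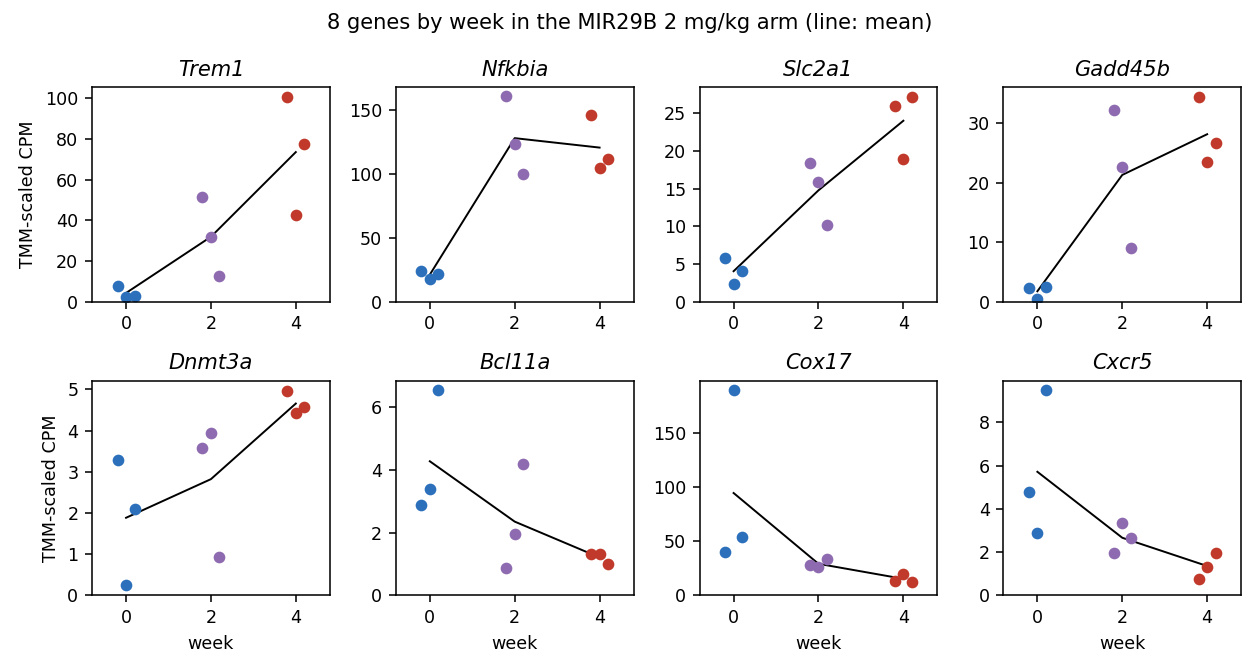
Levels of 8 genes in TMM-scaled CPM at weeks 0, 2 and 4 of the MIR29B 2 mg/kg arm, each point 1 library and the line through the means. Nfkbia has 100.3 to 160.8 CPM at week 2, overlapping week 4, while the Trem1 mean at week 2, 31.9 CPM, lies between the means of the other weeks.

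Week 2 libraries of the same arm were read beside the comparison without a test. Week 2 and week 4 are set against the same week 0 libraries, so only levels are given. Trem1 stood at 7.54, 2.36 and 2.93 CPM at week 0, 51.4, 31.7 and 12.5 CPM at week 2 and 100.4, 42.7 and 77.3 CPM at week 4. Nfkbia averaged 21.2 ± 3.22 CPM at week 0, 128.1 ± 30.5 CPM at week 2 and 120.7 ± 22.3 CPM at week 4 (SD, n = 3 each). The week 2 libraries of Trem1 lay above those of week 0 and overlapped week 4, and those of Nfkbia did likewise. Libraries 2 and 3 of week 2 held 15.05% and 9.15% ribosomal RNA.

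The 61 called lower genes were few in any fixed list, with 2 in the B cell list, Psma5 in the proteasome list and Ccnb2 in the cell cycle list. Week 0 library 2 held the highest of the 6 values in 56 of the 61, against 2713 of all 11953 genes tested. Their median transcript length was 1773 bases, against 2838 over all tested genes and 3086 over the called higher genes. Cox17, a copper chaperone for cytochrome oxidase, stood at 13.5, 20.02 and 12.2 CPM at week 4, against 40.2, 189.6 and 54.3 CPM at week 0. Srp14, a subunit of the signal recognition particle, stood at 31.2, 81.3 and 52.5 CPM at week 4, against 94.9, 656.3 and 226.3 CPM at week 0. Week 0 library 2 was the highest by far in both. Their log2 fold changes were -2.63 ± 0.73 and -2.57 ± 0.64, with adjusted p of 0.0497 and 0.0262, and of -1.66 and -1.57 without that library, with adjusted p of 0.523 and 0.453. The respiratory chain gene Ndufa4, the proteasome subunit gene Psma5, Jpt1, Hypk and Rint1 had log2 fold changes of -2.51 to -2.32 and lost the call in the same way, with log2 fold changes of -1.71 to -1.48 and adjusted p of 0.396 to 0.447. The antisense transcript Slc36a1os had a log2 fold change of -2.25 with an adjusted p of 0.0442. Without week 0 library 2 these were -1.63 and 0.415. The reads of Slc36a1os cannot be told from those of the opposite strand since the strand setting is not stated.
Stambp, Snhg20 and Saysd1 were low in all week 4 libraries, and their week 0 libraries 2 and 3 lay close together. Stambp, a deubiquitinase, stood at 0.932, 0.94 and 0.449 CPM at week 4, against 2.98, 4.19 and 3.35 CPM at week 0. The log2 fold change of Stambp was -2.16 ± 0.57 with an adjusted p of 0.0368, and -2.06 with an adjusted p of 0.187 without week 0 library 2. Snhg20 and Saysd1 had log2 fold changes of -2.13 ± 0.58 and -4.13 ± 0.98, with adjusted p of 0.0444 and 0.0185, and of -1.94 and -3.85 without it, with adjusted p of 0.273 and 0.101.

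Of 24 tested B cell genes, 2 were called lower and none higher, with a median log2 fold change of -0.82. Cxcr5, the receptor that guides B cells into follicles, stood at 0.777, 1.32 and 1.98 CPM at week 4, against 4.78, 2.88 and 9.49 CPM at week 0. The log2 fold change of Cxcr5 was -2.08 ± 0.55, with an adjusted p of 0.0355. The Cxcr5 call held without week 0 library 1 or 2 and was lost in the other 4 fits that left out 1 library. Vpreb3, a pre-B cell receptor component, stood at 0.544, 0.094 and 0.359 CPM at week 4, against 1.27, 5.76 and 5.02 CPM at week 0, with an adjusted p of 0.0351. The Vpreb3 call was lost in 5 of the 6 such fits, with an adjusted p of 0.187 and a log2 fold change of -3.24 without week 0 library 2, against -3.54 with it. The B cell list had 1 called gene without week 0 library 2 and none without week 0 library 3 or week 4 library 1. The defining genes Ms4a1 and Cd79a had log2 fold changes of -1.14 ± 0.66 and -1.06 ± 0.70, and neither passed the test. The summed level of the list was 3973, 5666 and 5911 CPM at week 4, against 5727, 13250 and 8157 CPM at week 0. In the scrambled arm Cxcr5 had a log2 fold change of -2.26 ± 0.55 and the list a median of -0.51.
None of 26 T cell genes, 27 NK and cytotoxic genes, 30 platelet genes, 53 interferon-stimulated genes or 16 MHC class II genes was called, with medians of -0.05, -0.1, -0.27, -0.2 and -0.33.

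Lists of housekeeping machinery had negative medians and few or no called genes. None of 87 cytosolic ribosomal protein genes was called, at a median log2 fold change of -1.06, and 2 of them had a positive value. Their summed level was 49500, 74840 and 71080 CPM at week 4, against 70190, 222400 and 130700 CPM at week 0, and week 0 library 1 lay within the range of week 4. With the transcript length index in the model the median was -0.05, and in the scrambled arm it was 0.35. The mitochondrial ribosomal protein genes, 78 tested and none called, had a median of -0.79 that was -0.14 with the index. Of 41 proteasome genes, Psma5 was called, and the median was -0.75, or -0.04 with the index. Ccnb2, a mitotic cyclin, was the called gene of 52 cell cycle genes, with a log2 fold change of -1.76 ± 0.47. Its adjusted p was 0.0404, and 0.362 without week 0 library 2, where the log2 fold change was -1.41.

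The scrambled arm at 2 mg/kg showed few called genes between the same weeks. Of 11953 genes 4 were called, all higher, 0.0335%: Jdp2, Maff, Plaur and Sdhaf1, the first 3 of which were also called with MIR29B. At an unadjusted p under 0.05 stood 573 genes. Leaving out any 1 of its 6 libraries gave 0 or 1 called gene. The direction was shared: 183 of the 188 genes called higher with MIR29B, 97.34%, had a positive log2 fold change in the scrambled arm, against 47.44% of all tested genes, and 57 of the 61 called lower had a negative one, against 52.51%. Their medians in the scrambled arm were 0.85 and -0.38. Maff stood at 2.85, 8.98 and 18.4 CPM at week 4 with the scrambled control, against 0.775, 1.48 and 0.816 CPM at week 0, a log2 fold change of 3.27 ± 0.63 with an adjusted p of 0.037. Trem1 stood at 59.7, 41.5 and 28.7 CPM at week 4 with the scrambled control, against 14.6, 22.6 and 4.55 CPM at week 0, a log2 fold change of 1.63 ± 0.53 with an adjusted p of 0.75. At week 0, Trem1 libraries 1 and 2 of the scrambled arm were above all 3 of the MIR29B arm.

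The difference between the arms in the change from week 0 to week 4 was tested directly. None of 11953 genes passed, 0.0%, by edgeR, by DESeq2 or by voom, and 798 stood at an unadjusted p under 0.05. The smallest adjusted p was 0.705. Of the 188 genes called higher with MIR29B, 105 had an unadjusted p under 0.05 for the difference, and of the 61 called lower 41 had. These counts are a description, since the genes were chosen for their change in 1 of the arms. The 5 smallest p-values belonged to Ccdc93, Ccrl2, 9130019O22Rik, Maff and Slc22a15. For Ccrl2 the difference was 2.61 ± 0.66 and for Slc22a15 it was 4.34 ± 1.13 on the log2 scale, with larger rises in the MIR29B arm. The arms also differed at week 0. Ccrl2 averaged 4.52 CPM with MIR29B and 11.7 CPM with the scrambled control at week 0, and 34.5 and 14.75 CPM at week 4. Slc22a15 averaged 0.106 and 1.53 CPM at week 0, and 3.9 and 2.1 CPM at week 4, in the same order. Maff differed by 4.08 ± 1.04, with unadjusted p of 0.000412. Its means were 0.0708 CPM with MIR29B and 1.02 CPM with the scrambled control at week 0, and 16.3 and 10.1 CPM at week 4.

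**Figure D5:**
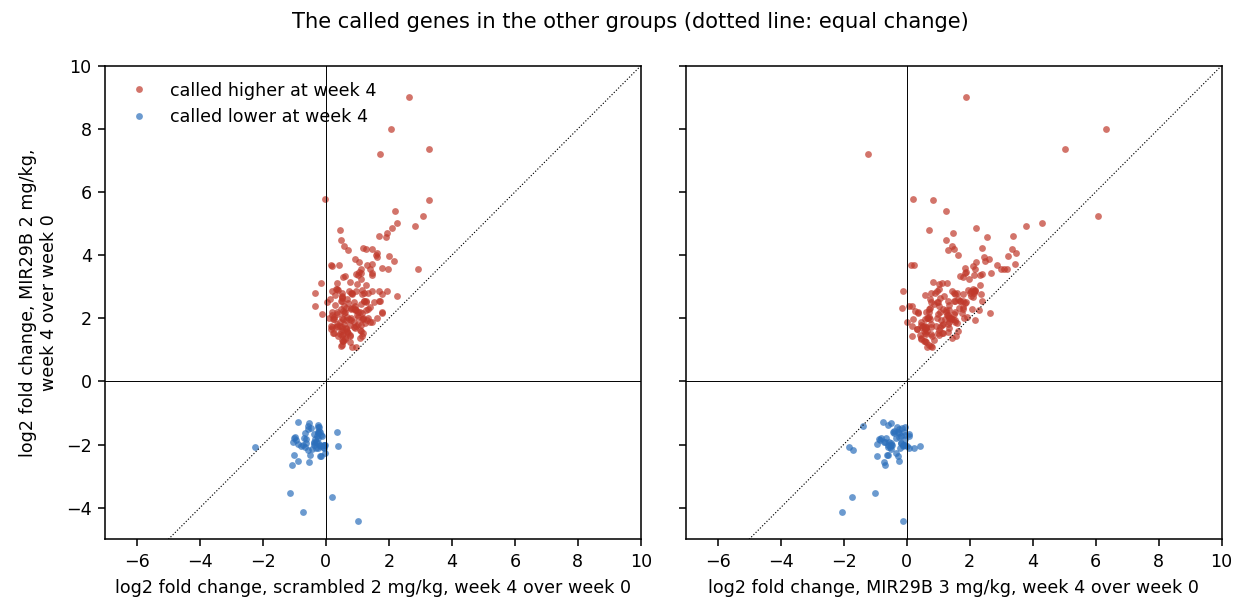
Log2 fold change of week 4 over week 0 in the MIR29B 2 mg/kg arm (vertical axis) for the 249 called genes, against the same in the scrambled 2 mg/kg arm (left) and in the MIR29B 3 mg/kg arm (right), with red for called higher and blue for called lower. Most red points lie right of 0 in both panels, 183 and 185 of 188, and above the dotted line of equal change.

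At 3 mg/kg of MIR29B, 17 genes were called between the same weeks, all higher, 0.142%, and 16 of them were also called at 2 mg/kg. At an unadjusted p under 0.05 stood 732 genes. Of the 188 genes called higher at 2 mg/kg, 185 had a positive log2 fold change at 3 mg/kg, 98.4% against 46.83% of all tested genes, with a median of 1.32. Trem1 stood at 41.8, 36.2 and 43.1 CPM at week 4 at 3 mg/kg, against 4.55, 3.16 and 3.25 CPM at week 0, a log2 fold change of 3.46 with an adjusted p of 0.00325. G0s2 stood at 15.8, 13.9 and 20.4 CPM at week 4 at 3 mg/kg, against 2.24, 1.82 and 0.764 CPM at week 0, with an adjusted p of 0.00746. Without week 0 library 2 or library 3 of that dose, 2 or 3 genes were called, and without week 4 library 1, 11 were. Slc22a15 stood at 1.55, 1.59 and 1.37 CPM at week 4 at 3 mg/kg, against 1.22, 0.767 and 0.764 CPM at week 0, without overlap and with a log2 fold change of 0.70. Cdc42ep4, an effector of CDC42, had a log2 fold change of -0.12 at 3 mg/kg.
The difference between the doses in this change was also tested. None of 11953 genes passed, 0.0%, by edgeR or by DESeq2, while voom with sample weights called 90, 622 stood at an unadjusted p under 0.05, and the smallest adjusted p was 0.809. The smallest p-values belonged to Cd80, Slc22a15, Cdc42ep4, Alg9 and Chst13. Alg9, a mannosyltransferase, stood at 2.17, 2.16 and 2.69 CPM at week 4 at 2 mg/kg, against 5.63, 16.2 and 8.51 CPM at week 0. Chst13, a sulfotransferase, had no counts at week 0 at 2 mg/kg and was at least 13-fold higher at week 4 when the 3 week 0 libraries together are put at 3 counts, or 6.5-fold at 6 counts, a call that was lost in all 6 fits without 1 library.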

How the data were processed

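RNA from peripheral blood was depleted of globin messenger RNA before sequencing, per the labels' protocols. The authors deposited a table of raw read counts per transcript for 36 libraries; GRCm38, the aligner HISAT2 2.0.5 and the counter featureCounts 1.5.0-p3 are given by the submitters' processing notes. Strand setting is not given in the sources used here, and every count is even. Of 25856 transcripts, 25650 matched RefSeq and 132 GENCODE, and 1 transcript was kept for each of 16812 genes. Totals in the 6 libraries were 17.87 to 39.38 M counts, which sets the precision of low genes; floors cover counting error only.

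Genes passing a minimum count of 10 in edgeR 4.0.16 (R 4.3.3), 11953 in all, were fitted with TMM scaling and a mean for each of 12 groups over all libraries. Contrasts were tested by the quasi-likelihood F test with Benjamini-Hochberg adjustment, and called at an adjusted p under 0.05. On simulated counts for week 4 against week 0 at 2 mg/kg of MIR29B, 200 genes were changed 2-, 4- or 8-fold. Recovered were 2, 133 and 199 of them, among 11625, 11617 and 11607 genes, with 0, 3 and 5 false calls. Genes with low mean levels were not among those changed, and no difference in make-up between the weeks was simulated. Alternatives used DESeq2 1.42.0, voom in limma 3.58.1, other filters, scaling and covariates, and left out each library.

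Named genes were the 12 largest rises and falls among called genes averaging at least 1 CPM, up to 4 called members of each list by p, 11 fixed genes, and the 5 smallest p-values of each difference test; other genes were chosen after their values were seen. The members and lists were chosen with earlier results of these data known. Tables and plots used Python 3.11.15, pandas 2.3.3 and matplotlib 3.10.9. Some results are not reported here.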

Additional observations from a re-analysis of the deposited data

Results flagged for a closer look

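Of the genes described, 2 moved in opposite directions in 2 groups with no overlap between the weeks in either group. Ccdc93 stood at 4.27, 3.85 and 2.6 CPM at week 4 with MIR29B at 2 mg/kg, against 2.55, 1.05 and 1.68 CPM at week 0. With the scrambled control it stood at 0.952, 0.707 and 0.799 CPM at week 4, against 3.43, 3.99 and 3.85 CPM at week 0. The difference between the arms was 3.18 on the log2 scale. The transcript 9130019O22Rik stood at 0.311, 0.376 and 0.359 CPM at week 4 with MIR29B at 2 mg/kg, against 0.212, 0 and 0.279 CPM at week 0. With the scrambled control it had no counts at week 4, against 0.443, 0.886 and 0.466 CPM at week 0, a fitted difference of 7.5 between the arms that is no bound. At 3 mg/kg of MIR29B it stood at 0.211, 0.133 and 0.172 CPM at week 4, against 0.34, 0.383 and 0.286 CPM at week 0, a difference of 1.88 between the doses. None of these differences passed edgeR's test, in which the smallest adjusted p over all genes was 0.705 between the arms and 0.809 between the doses.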

How the results depend on the processing

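Between week 4 and week 0, the MIR29B 2 mg/kg arm had 249 called genes. The count was 921 without the filter on low counts, 802 with DESeq2, 2627 with voom, 383 with only the compared groups fitted and 120 with the transcript length index. Leaving out 1 library gave 43 to 615, and leaving out both week 0 libraries 2 and 3, chosen after seeing the data, gave 0. For the scrambled arm, with 4 called, the same filter, DESeq2, voom, compared-groups and length index settings gave 17, 20, 18, 0 and 20. It had 0 without libraries over 5% ribosomal RNA, 1 with transcripts summed per gene and 0 to 1 with 1 library left out. For 3 mg/kg, with 17 called, these 5 settings gave 83, 64, 492, 28 and 72, halved counts gave 28, and leaving out 1 library gave 2 to 20. Without the filter, 39 genes passed for the difference between arms and 1 for that between doses, where voom gave 90. Deviations from the group means correlated between the weeks at 0.23, 0.07 and 0.13 for like replicate numbers at 2 mg/kg of MIR29B. Unlike numbers gave -0.19 to 0.07. Like numbers gave 0.32, 0.16 and 0.07 at 3 mg/kg, and unlike ones -0.26 to 0.08. In the scrambled arm these were 0, -0.05 and 0.25, and -0.17 to 0.18. The numbers were not taken to pair the samples, and what libraries of like number share was not tested. With a replicate block the counts were 998 at 2 mg/kg, 0 in the scrambled arm and 46 at 3 mg/kg. Signs were compared only for the genes named by the rule, and among these the sign turned only in genes that did not pass the test. Dnmt3b was -0.29 with voom and -0.15 to 1.56 with 1 library left out. Dnmt1 was -0.1 with the length index, -0.02 to 0.5 with 1 library left out and -0.05 without both week 0 libraries. Myb was 0.02 with a sex term and -0.78 to 0.56 with 1 library left out. Klf1 was 0.21 and Gata1 0.59 with the length index, and Gata1 was -0.46 to 0.18 with 1 library left out and 0.06 without both. The cause of these changes was not tested. Simulated 2-fold changes were mostly missed at this depth and spread, 2 of 200 recovered.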
